A study of Mus musculus with 2 samples.

Results

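Type A intercalated cells, the acid-secreting cells of the renal collecting duct, were picked out of 2 single-cell RNA libraries of injured mouse kidney, and 91 barcodes of the 16593 kept in all met the criteria. The cells were chosen by their own transcripts. A kept barcode held 1000 to 100000 unique molecular identifiers (UMIs, 1 for each captured RNA molecule), at least 200 genes, at most 50% mitochondrial UMIs, and its log10 gene number was at least 0.8 of its log10 UMI number. A type A cell held at least 3 UMIs of Atp6v1g3, at least 1 of Foxi1, at least 2 of Slc4a1 and more of Slc4a1 than of Slc26a4, and none of Ptprc, the gene of the leukocyte antigen CD45. The Cre- library gave 61 such cells and the PHDTiEC library 30.

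Intercalated cells set the acid-base balance of the body in the late nephron. Type A cells carry a vacuolar proton pump (V-ATPase) on the side facing the urine and the chloride-bicarbonate exchanger AE1, encoded by Slc4a1, on the side facing the blood, and cytosolic carbonic anhydrase supplies both with protons and bicarbonate. Type B cells carry the exchanger pendrin, encoded by Slc26a4, and secrete bicarbonate, while principal cells between them take up sodium and, through Aqp2, water. Foxi1 is the forkhead transcription factor that intercalated cells depend on for their identity.

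The study asked how loss of the oxygen-sensing prolyl hydroxylases from endothelium alters the kidney after ischemia. Both mice were 8 to 10 weeks old and, by the study's methods, male. Each received 4 doses of tamoxifen at 3 mg per mouse and 25 minutes of unilateral renal ischemia, and the injured kidney was taken on day 14. The PHDTiEC mouse carried Cdh5-CreERT2 together with floxed alleles of all 3 hydroxylase genes (Phd1f/f, Phd2f/f, Phd3f/f), and the Cdh5 promoter drives a tamoxifen-activated recombinase in endothelial cells, so type A cells were not the targeted cells. The control, labelled Cre-, lacked the recombinase gene and went through the same tamoxifen and injury. Each group was 1 mouse and 1 library, so genotype, mouse and library cannot be told apart, no test between groups was made, and every interval given is a 95% interval for counting error alone.

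The libraries held 136004367 UMIs (Cre-) and 146758812 UMIs (PHDTiEC), and the kept barcodes had a median of 8041 and 8453 UMIs. The number of barcodes with at least 500 UMIs was 9636 and 9948, and the number kept was 7941 and 8652. Kept barcode sequences shared by the libraries numbered 23, of which 0 were type A cells. In endothelial barcodes Egln1, the gene of PHD2, stood at 68.8 CPM (UMIs of the gene per 1000000 UMIs of the summed barcodes) in the Cre- library and 173 in the PHDTiEC library, Egln2 (PHD1) at 36.6 and 37.7, and Egln3 (PHD3) at 22.5 and 128. These genes were therefore not lower in the library labelled PHDTiEC. The reads tag the 3' end of a transcript and the position of the deleted parts is not given in the sources used here, so this does not check the genotype, and below "the PHDTiEC library" means the library so labelled. The hydroxylases restrain the HIF response. Of 28 measured HIF target genes, 17 were at least 1.5-fold higher in PHDTiEC endothelial barcodes and 0 lower. Their median log2 ratio (PHDTiEC over Cre-) was 1.13. Of 18 glycolysis genes there, 11 were higher and 1 lower, with a median of 0.81. In uninjured PHDTiEC mice, the study reports loss of these hydroxylases from kidney endothelium by immunostaining. In type A cells Egln1 stood at 49.8 and 61.6 CPM, Egln2 at 57.6 and 38.1 and Egln3 at 7.27 and 6.84.

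The criteria fixed Atp6v1g3, Foxi1 and Slc4a1 upward and Slc26a4 and Ptprc downward, and their levels are given as a description only. Slc4a1 (chr11:102348824-102366203, GRCm38) stood at 266 CPM in the 61 Cre- cells and 180 in the 30 PHDTiEC cells, against 28.5 and 34.3 in type B cells and 0 in principal cells. Principal cells were chosen to hold none of it, and type B cells to hold less of it than of Slc26a4. Foxi1 (chr11:34204338-34208089) stood at 324 and 235 in type A cells and 357 and 300 in type B cells. Both types were chosen to hold Foxi1 and Atp6v1g3, so their presence in both types was set by the choice. Atp6v1g3 (chr1:138273738-138289462), a G subunit of the V1 sector of the proton pump, stood at 2430 and 1816 in type A cells and 3054 and 2661 in type B cells. Slc26a4 stood at 10.1 and 24.4 in type A cells and 508 and 488 in type B cells, which were themselves chosen by Slc26a4.

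Aqp6 and Hmx2 were the markers of the type A label that the criteria did not use. Aqp6 (chr15:99601400-99605477), an aquaporin of intracellular vesicles in type A cells, was seen in 61 of 61 Cre- cells and 29 of 30 PHDTiEC cells. It stood at 975 and 655 CPM, against 193 and 160 in type B cells, 2.32 and 9.85 in principal cells and 3.12 and 0.433 in thick ascending limb cells. Aqp6 was also seen in 51 of 122 Cre- type B cells (41.8%) and 74 of 147 PHDTiEC type B cells (50.3%). By its level, Aqp6 thus went with the label in both libraries, though it was not confined to type A cells. Hmx2 (chr7:131548773-131558014), a homeobox transcription factor gene, went against it. Hmx2 stood at 3.36 and 76.3 CPM in type A cells and at 311 and 218 in type B cells. It was seen in 3 of 61 Cre- type A cells (4.92%, interval 1.03 to 13.7) and 5 of 30 PHDTiEC type A cells (16.7%, interval 5.64 to 34.7), but in 86.1% and 87.8% of type B cells. A single PHDTiEC cell with 37 Hmx2 UMIs gave 47.4% of all Hmx2 UMIs in that group, and it also held 7 Slc26a4 UMIs and 9 Slc4a1 UMIs.

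**Figure D1:**
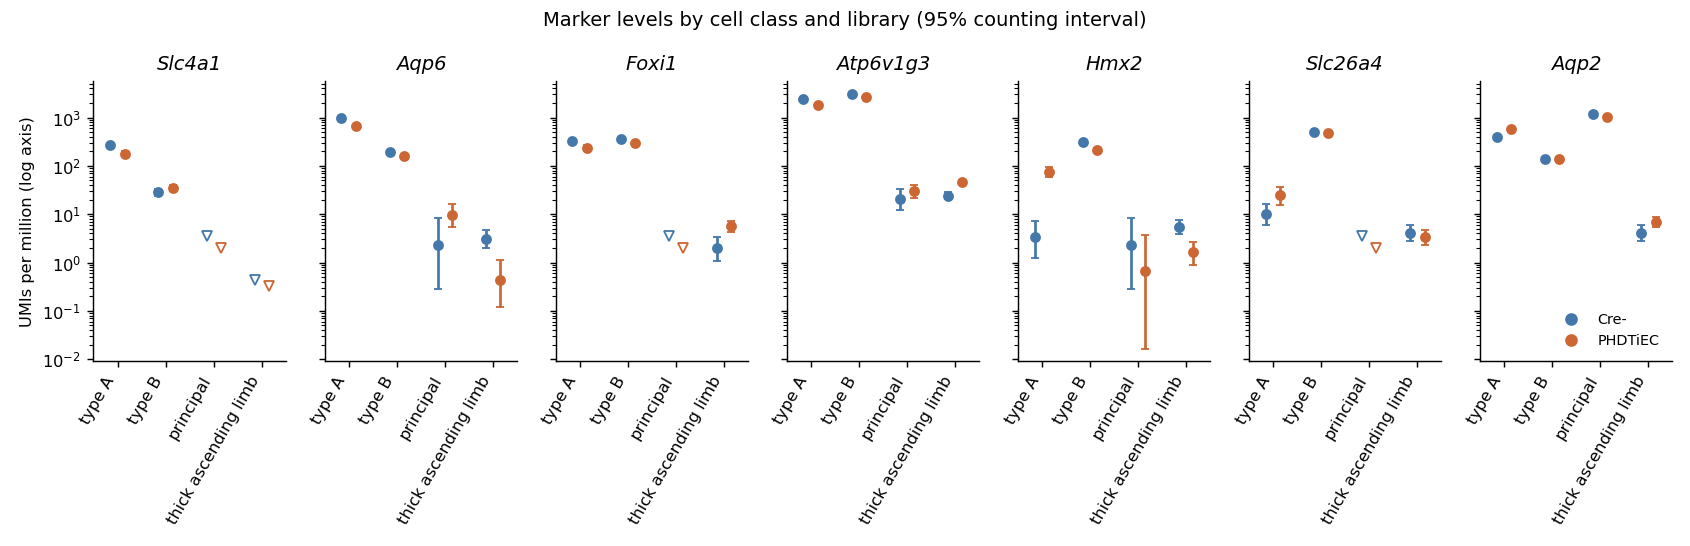
Levels of 7 marker genes in CPM (log axis) in type A, type B, principal and thick ascending limb cells of the Cre- (blue) and PHDTiEC (orange) libraries; points are sums over all cells of a class with 95% counting intervals, and open triangles mark classes with 0 UMIs, drawn at the level of 3 UMIs. Aqp6 sits at 975 and 655 in type A cells against 193 and 160 in type B cells, whereas Hmx2 sits at 311 and 218 in type B cells against 3.36 and 76.3 in type A cells.

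The genes that stood furthest above all other kept barcodes in both libraries were, in order, Slc4a1, Aqp6, Oxgr1, Dmrt2, Rhbg, B830017H08Rik, Kit, Guca2a, 2610016A17Rik, Aqp2, Pdlim3, Atp6v1c2, Atp6v1b1, Atp6v1g3 and Defb1. They included 3 subunits of the V1 sector, the ammonia transporter gene Rhbg and Defb1, which encodes an antimicrobial defensin. Oxgr1 encodes a receptor for alpha-ketoglutarate and Dmrt2 a transcription factor. Since this order was read in the cells that the criteria selected, it describes them and tests nothing.

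Promoter sequence was available from RefSeq (GRCm38.p6, plus strand of the gene) for 12 of these 15 leading genes, in 13 windows of 300 bases. The letters TGTTTAC, a core that forkhead factors such as Foxi1 can bind, were searched on both strands in each window, as were the letters TATTTAC. The first was present in 2 of the 13 windows (15.4%), those of Atp6v1b1 at base -98 and Guca2a at base -34 from the start site, against 3.65% of all 32851 promoter windows, and with 13 windows this is a description only. The second was in 0 of the 13 windows, against 3.04% of all windows. Of the windows of the V-ATPase genes (22 of 32 matched), 1 of 28 (3.57%) held the former. The 3 sequences below are shown because they lie before a V1 gene used to choose the cells, before the marker that the criteria did not use, and before the V1 gene with the match, and capitals mark TGTTTAC. They run from base -250 to base -31 and lie at chr1:138273488-138273707, chr15:99600950-99601169 and chr6:83742767-83742986.
Atp6v1g3: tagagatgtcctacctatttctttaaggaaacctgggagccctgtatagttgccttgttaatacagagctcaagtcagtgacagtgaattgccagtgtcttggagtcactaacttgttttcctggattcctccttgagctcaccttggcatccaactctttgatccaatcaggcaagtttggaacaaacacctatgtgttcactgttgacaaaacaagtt
Aqp6: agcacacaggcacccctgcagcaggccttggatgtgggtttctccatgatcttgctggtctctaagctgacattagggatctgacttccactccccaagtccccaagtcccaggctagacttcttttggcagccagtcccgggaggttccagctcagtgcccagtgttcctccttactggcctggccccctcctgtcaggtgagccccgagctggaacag
Atp6v1b1: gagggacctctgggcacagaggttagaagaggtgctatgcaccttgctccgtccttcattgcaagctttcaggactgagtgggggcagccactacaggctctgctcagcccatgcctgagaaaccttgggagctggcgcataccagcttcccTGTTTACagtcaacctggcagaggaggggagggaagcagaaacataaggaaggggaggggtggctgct

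Only Atp6v1b1, the B1 subunit of the pump, has the letters in the stretch shown, and the sequences before Atp6v1g3 and Aqp6 have none. This is a description of the letters in these windows and says nothing of binding.

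The cells lay close to the thresholds in many cases. Of the type A cells, 25 of 61 and 14 of 30 held 2 to 4 Slc4a1 UMIs, of which 10 and 6 held exactly 2, and 17 and 4 held at least 10. Just outside the criteria were 19 Cre- and 17 PHDTiEC barcodes with 1 Slc4a1 UMI, and 24 and 38 barcodes with at least 2 Slc4a1 UMIs but no more than of Slc26a4. A further 10 and 3 barcodes lacked only Foxi1. Slc26a4 was seen in 10 of 61 and 8 of 30 type A cells, and at 5 or more UMIs in 0 and 2 of them. Most type A cells therefore held no pendrin transcript, and 71 and 57 intercalated barcodes held neither exchanger.

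**Figure D2:**
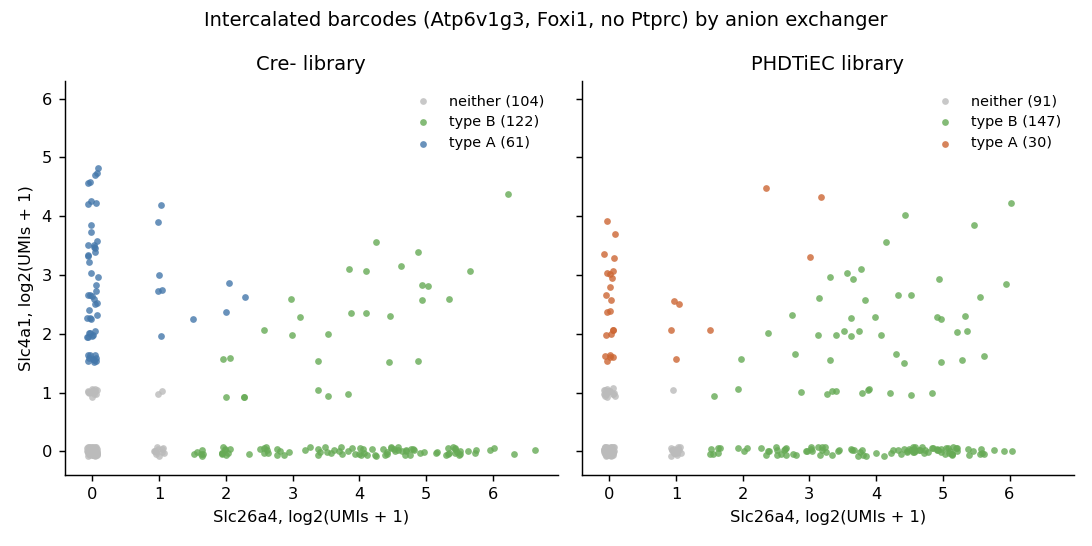
Slc4a1 against Slc26a4, as log2(UMIs + 1), in each barcode with Atp6v1g3 and Foxi1 and without Ptprc (1 point per barcode, jittered slightly), for the Cre- library (left) and the PHDTiEC library (right). Type A cells (61 and 30) lie mostly along the left edge above 1 Slc4a1 UMI, type B cells (122 and 147) mostly along the lower edge, and 104 and 91 barcodes were neither.

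Type A cells made up a smaller share of the PHDTiEC library. They were 61 of 7941 kept barcodes in the Cre- library (0.768%, exact binomial interval 0.588 to 0.986) and 30 of 8652 in the PHDTiEC library (0.347%, interval 0.234 to 0.495), a ratio of 0.451 (interval 0.281 to 0.710). Type B cells were 122 and 147 (1.54% and 1.70%, ratio 1.11, interval 0.864 to 1.42), and principal cells were 46 and 61 (0.579% and 0.705%). Among type A and type B cells together, type A cells were 33.3% (interval 26.6 to 40.7) in the Cre- library and 16.9% (interval 11.7 to 23.3) in the PHDTiEC library. Among all 287 and 268 barcodes with Atp6v1g3 and Foxi1 and without Ptprc they were 21.3% and 11.2%. The lower share was thus seen against other collecting duct cells as well as against all barcodes.

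The RNA of all 287 and 268 intercalated barcodes was also summed, the type A cells among them. Slc4a1 stood at 71.1 CPM in the Cre- library and 42.5 in the PHDTiEC library, a log2 ratio (PHDTiEC over Cre-) of -0.74 (interval -0.93 to -0.56). The type A cells, which were chosen by Slc4a1, gave 476 of its 635 UMIs in the Cre- sum and 184 of 406 in the PHDTiEC sum, so these values describe the same cells and are no separate support for the lower share. Aqp6, which the criteria did not use, stood at 406 and 248, a log2 ratio of -0.71 (interval -0.79 to -0.64). The type A cells gave 1743 of its 3631 UMIs in the Cre- sum and 670 of 2373 in the PHDTiEC sum. Aqp6 thus also describes the same cells in large part and is no separate support. In type B cells its log2 ratio was -0.28. Slc26a4 stood at 279 and 307, a log2 ratio of 0.14 (interval 0.06 to 0.22). In such a sum, fewer type A cells and less of these transcripts per cell cannot be told apart, and with 1 mouse a group the spread between mice is unknown.

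The demand for 0 Ptprc UMIs removed about as many barcodes as it left, 57 in the Cre- library and 53 in the PHDTiEC library. Of these, 25 and 24 held a single Ptprc UMI. They were deeper, with a median of 55274 and 56875 UMIs against 23290 and 27832 in the type A cells. The macrophage gene C1qa stood at 165 and 185 CPM in them, against 14.0 and 13.7 in the type A cells and 4297 and 3867 in macrophage barcodes. With these barcodes counted in, type A cells were 118 (1.49%) and 83 (0.959%), a ratio of 0.646 (interval 0.482 to 0.862), and 33.0% (interval 28.1 to 38.1) and 23.6% (interval 19.3 to 28.4) of type A and type B cells. For the latter shares, type B cells were also counted without the demand on Ptprc. The share stayed lower in the PHDTiEC library, by a smaller factor.

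The type A cells were deep compared with the median kept barcode. In the Cre- library the lowest, median and highest cell held 1085, 23290 and 87149 UMIs, and in the PHDTiEC library 8034, 27832 and 85823. The median number of genes was 5264 and 6080. Mitochondrial transcripts took a median of 11.8% of UMIs in Cre- cells and 7.90% in PHDTiEC cells, and were lower in the PHDTiEC library in type B cells (8.64% and 5.94%), principal cells (9.66% and 6.50%) and macrophages (3.35% and 2.41%) too. The 2 groups of type A cells therefore overlapped widely in depth and differed in mitochondrial share as the other classes did.

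Aqp2 (chr15:99579055-99584547), the water channel of principal cells, was not used by the criteria and was present in a large minority of type A cells. It was seen in 25 of 61 Cre- cells (41.0%, interval 28.6 to 54.3) and 12 of 30 PHDTiEC cells (40%, interval 22.7 to 59.4). After each cell was thinned to 5000 UMIs, which left out 1 shallower Cre- cell, the shares were 20 of 60 (33.3%, interval 21.7 to 46.7) and 5 of 30 (16.7%, interval 5.64 to 34.7). Thinned type B cells gave 21.7% and 30.3%, thinned principal cells, which were chosen by Aqp2, 97.8% and 91.7%, and thinned macrophages, which should lack it, 1.40% and 0.563%. The unthinned macrophage shares were 1.88% and 1.34% at a median of 7631 and 8221 UMIs. Aqp2 in type A cells thus lay above its share in macrophages, and where the macrophage UMIs came from was not tested.

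The summed Aqp2 level was 398 CPM in Cre- type A cells and 573 in PHDTiEC type A cells, against 139 and 140 in type B cells, and 56.4 and 52.1 in barcodes under 100 UMIs, which hold mostly free RNA. A single PHDTiEC cell with 281 Aqp2 UMIs gave 47.9% of that group's Aqp2. The log2 ratio (PHDTiEC over Cre-) of 0.53 was -0.29 without that cell, 0.10 without the cell with most Aqp2 in each library, and -0.70 where Ptprc was not used. The summed level therefore gives no firm direction for Aqp2 between the libraries.

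Type A cells with Aqp2 also held other principal cell transcripts. The 20 Cre- and 8 PHDTiEC cells with at least 5 Aqp2 UMIs had a median of 33910 and 41993 UMIs, against 17056 and 16064 in the 36 and 18 cells with none. Fxyd4, a regulator of the sodium pump in principal cells, stood at 1168 and 1510 CPM in the former and 120 and 328 in the latter. Hsd11b2, which inactivates glucocorticoids in aldosterone target cells, stood at 2475 and 2921 against 224 and 1396. Atp6v1g3 ran the other way, at 1320 and 1240 against 3567 and 2126. Slc4a1 was 159 against 368 in the Cre- library but 217 against 157 in the PHDTiEC library. These cells thus carried transcripts of both types at higher depth. No doublet caller was run, and whether they were doublets was not tested.

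**Figure D3:**
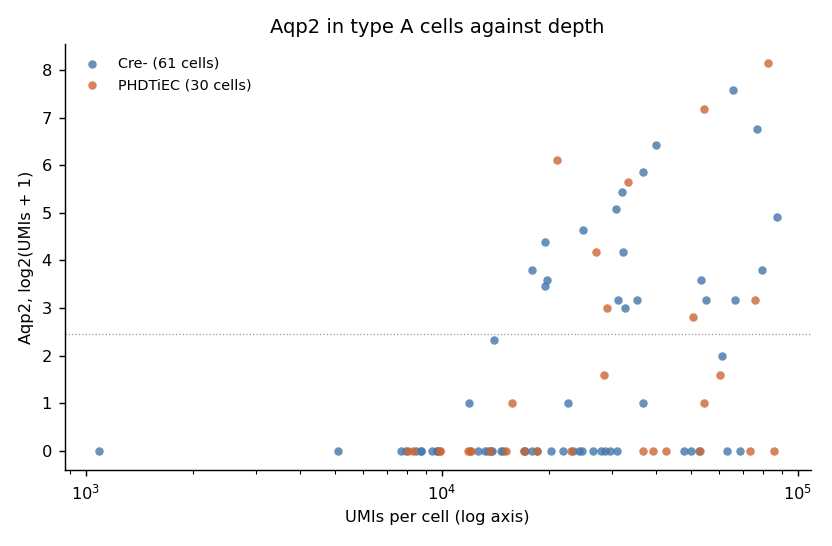
Aqp2, as log2(UMIs + 1), against UMIs per cell (log axis) in 61 Cre- (blue) and 30 PHDTiEC (orange) type A cells, 1 point per cell; the dotted line separates cells with at least 5 Aqp2 UMIs. The 20 and 8 cells above the line lie to the right of most of the 36 and 18 cells without Aqp2, whose median depth was 17056 and 16064 UMIs.

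Markers of other cell types were sparse and unevenly spread over the type A cells. C1qa was seen in 13 of 61 and 11 of 30 cells, with at most 6 and 2 UMIs in a cell. The endothelial gene Pecam1 was seen in 1 and 4 cells, and the fibroblast gene Col1a1 in 5 and 2. The proximal tubule transporter gene Slc34a1 was seen in 12 and 8 cells with at most 63 and 15 UMIs, and the distal convoluted tubule transporter gene Slc12a3 in 4 and 6 cells with at most 164 and 12. A few cells therefore held most of the tubular markers, and their part in the results below was not tested.

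Type A and type B cells differed at few genes. Of 10922 genes measured, 50 (0.458%) were at least 2-fold higher and 146 (1.34%) at least 2-fold lower in type A cells in both libraries. Beside Slc4a1, which chose the cells, and Aqp6, the higher genes included Kit, a receptor tyrosine kinase gene, at 377 against 78.2 CPM in the Cre- library and 218 against 76.6 in the PHDTiEC library. Mme, which encodes the membrane peptidase neprilysin, stood at 407 against 98.4 and at 271 against 72.5. Dmrt2 stood at 163 against 52.9 and at 129 against 38.9. These 3 genes were higher in type A cells by more than the 2-fold limit in both libraries.

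The genes lower in type A than in type B cells included Insrr, the gene of an alkali-sensing receptor, at 3.92 CPM against 90.6 in the Cre- library and 12.7 against 82.8 in the PHDTiEC library. Coch, which encodes a secreted matrix protein, stood at 1.12 against 38.5 and at 0.978 against 52.3, and Dcn, the gene of the matrix protein decorin, at 2.24 against 76.7 and at 18.6 against 95.1. Havcr1, the gene of the tubular injury marker KIM-1, stood at 9.51 against 37.8 and at 2.93 against 26.3, and Vcam1, an adhesion molecule gene, at 14.0 against 55.4 and at 6.84 against 35.3. None of the 12 V1 or 18 V0 and accessory genes of the proton pump passed 2-fold between the 2 intercalated types in either direction. Atp6v1g3, a V1 gene, was used to choose both types.

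Against principal cells, many genes of the proton pump were higher in type A cells. Of 8887 genes measured, 218 (2.45%) were at least 2-fold higher and 85 (0.956%) at least 2-fold lower in type A cells in both libraries. The V1 sector gave 7 of 11 genes and the V0 sector and accessory list 6 of 15, all higher. The V1 count holds Atp6v1g3, which the criteria fixed upward, so that count is in part set by the choice of cells. Atp6v1g3 stood at 2430 against 20.9 CPM in the Cre- library and at 1816 against 29.6 in the PHDTiEC library. Atp6v1c2, a C subunit gene, stood at 244 CPM in type A cells against 2.32 in principal cells of the Cre- library and at 210 against 3.28 in the PHDTiEC library, and Atp6v0d2, a d subunit gene of the V0 sector, at 409 against 5.81 and at 295 against 6.57. Slc4a9, the gene of the exchanger AE4, stood at 218 against 2.32 and at 154 against 3.28. It was counted here as a type B marker but was seen in 52 of 61 and 27 of 30 type A cells. In type B cells it stood at 314 and 225, so it set the 2 intercalated types apart less than Slc26a4 or Insrr did. P2ry14, a receptor gene for UDP-glucose, stood at 116 against 1.16 in principal cells and at 58.7 against 1.31. The lower genes included Mgp, which encodes an inhibitor of calcification, at 8.39 against 1085 in the Cre- library but 47.9 against 133 in the PHDTiEC library, and Avpr2, the vasopressin receptor gene that controls Aqp2, at 25.2 against 77.9 and at 24.4 against 84.7. All 11 macrophage markers were at least 2-fold lower in type A than in principal cells, although both were free of Ptprc.

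Between the libraries, most genes of type A cells lay within 1.5-fold. Of 7031 genes with at least 50 UMIs, 611 (8.69%) were at least 1.5-fold higher and 381 (5.42%) at least 1.5-fold lower in the PHDTiEC library, and the median log2 ratio over all of them was 0.08, with 42.3% below 0. The counts of list genes below are to be read against these shares. The split depended on the scaling, with 415 higher and 572 lower under TMM (trimmed mean of M-values) scaling and 480 higher and 479 lower where mitochondrial genes and 2 ribosomal RNA-linked genes were left out of the totals. No balance between higher and lower genes should be read from them.

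The acid-base genes lay mostly lower in the PHDTiEC library, led by Car2. Of 15 exchangers and carbonic anhydrases measured, 3 were at least 1.5-fold lower and 0 higher, 13 had a log2 ratio below 0 (all genes, 42.3%), and the median was -0.50 (all genes, 0.08). Car2, the cytosolic carbonic anhydrase II that feeds the pump and the exchanger (chr3:14886273-14900770), stood at 1518 CPM in Cre- cells and 665 in PHDTiEC cells, a log2 ratio of -1.19 (interval -1.31 to -1.07). Its lowest, median and highest values per 10000 UMIs of a cell were 0.880, 17.4 and 58.1 in the Cre- library and 0.233, 7.67 and 20.2 in the PHDTiEC library. The ranges overlapped, and the highest PHDTiEC cell lay not far above the Cre- median. The Car2 log2 ratio was -0.87 in type B cells and -0.29 in principal cells, so it was not particular to type A cells. The other called genes were Atp12a, the colonic proton-potassium pump gene (26.9 and 12.7, seen in 16 and 7 cells), and Slc4a4, a sodium-bicarbonate cotransporter gene, of which 1 Cre- cell gave 48.5% of the UMIs in its group.

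The remaining transporters of acid secretion moved less. Rhcg and Rhbg, the ammonia transporter genes, stood at 381 and 263 and at 368 and 256 CPM, with log2 ratios of -0.54 and -0.52. Aqp6 had a log2 ratio of -0.57 (interval -0.70 to -0.44). None of these 3 passed 1.5-fold, but all lay close to it, and Aqp6 and Rhbg passed it with the Ptprc barcodes included (-0.61 and -0.73), while Rhcg stood at -0.57. Over the alternative settings Aqp6 reached -1.04 and Rhcg -0.77. The -0.57 of Slc4a1 (interval -0.82 to -0.32) is a description only, since the criteria used it. Slc26a7, another anion exchanger gene of the collecting duct, was too low for the comparison, at 17.9 and 7.82 CPM in 15 and 7 cells.

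The proton pump differed little between the libraries. Of 11 V1 genes, 0 passed 1.5-fold, 9 had a log2 ratio below 0 (all genes, 42.3%) and the median was -0.18. Among them the -0.42 of Atp6v1g3 (interval -0.50 to -0.34) is a description only, since the criteria used it. Atp6v1b1 stood at 335 and 315 CPM (log2 ratio -0.09), and Atp6v1a, the catalytic A subunit gene, at 1092 and 953 (-0.20). Of 14 V0 and accessory genes, 2 were higher and 2 lower, with a median of -0.17. The higher were Atp6v0a1 and Atp6v0a2 (log2 ratios 0.73 and 0.68), both low a subunit genes at 34.2 and 42.0 CPM in the PHDTiEC library. The lower were Ncoa7, whose product binds the pump (320 and 189, log2 ratio -0.76), and Dmxl1, whose product helps to assemble it (217 and 132, -0.72). Atp6v0a4, the kidney a subunit gene, stood at 427 and 401.

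Among transcription and signalling genes of intercalated cells, 3 of 16 were lower and 2 higher. Avpr1a, the V1a vasopressin receptor gene (chr10:122448499-122453452), stood at 106 and 37.2 CPM, a log2 ratio of -1.51, and was seen in 54 of 61 and 18 of 30 cells. In type B cells its log2 ratio was -0.29. Kit (chr5:75574916-75656722) stood at 377 and 218, a log2 ratio of -0.79 (interval -1.02 to -0.57), against -0.03 in type B cells. P2ry14 stood at 116 and 58.7, a log2 ratio of -0.98 against -0.64 in type B cells. The gap between the types was not tested for any of these. The higher genes were Hes1, a Notch target gene, at 379 and 779 (log2 ratio 1.04, and 0.87 in type B cells), and Hmx2, whose cells were described above. Among 22 ion-handling genes, 1 was higher and 2 lower. Clcn5, the gene of an endosomal chloride-proton exchanger, stood at 688 and 311, a log2 ratio of -1.15 (interval -1.33 to -0.97) against -0.30 in type B cells.

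**Figure D4:**
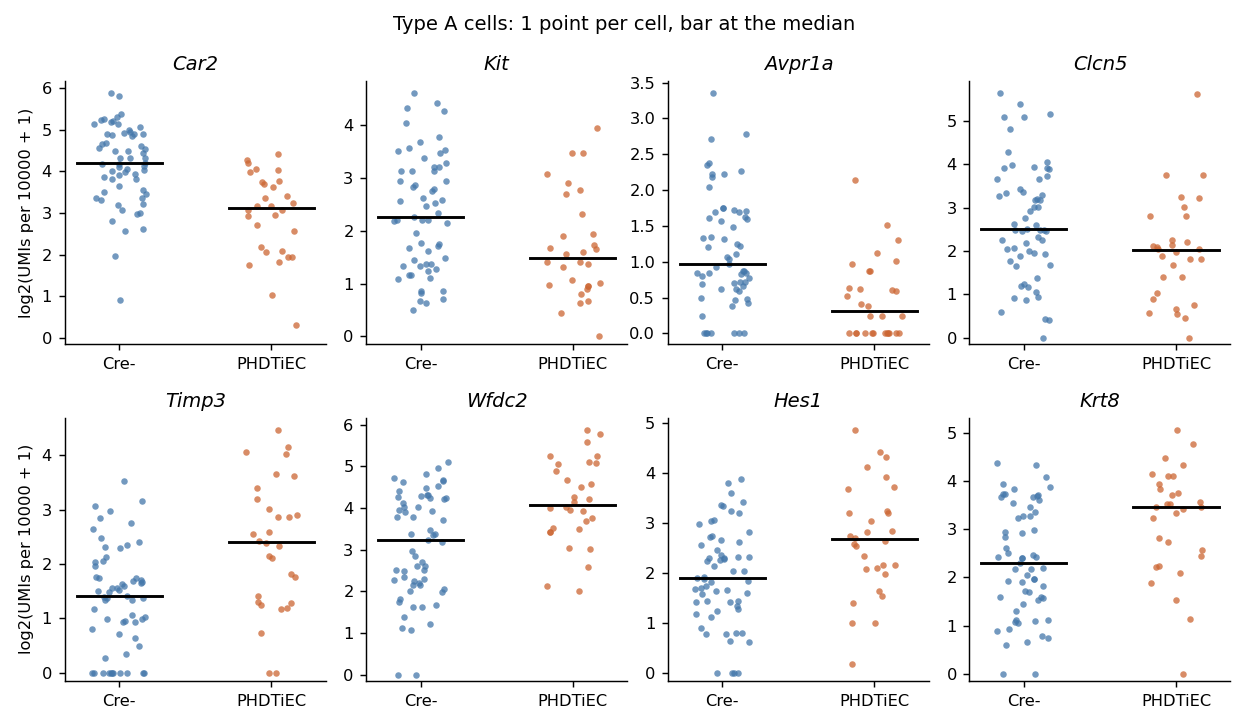
Car2, Kit, Avpr1a, Clcn5, Timp3, Wfdc2, Hes1 and Krt8 in each type A cell, as log2(UMIs per 10000 UMIs + 1), for 61 Cre- (blue) and 30 PHDTiEC (orange) cells; each point is 1 cell and the black bar is the median over cells. The upper 4 genes have lower and the lower 4 higher medians in the PHDTiEC library, and the cells of the 2 libraries overlap for all 8.

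The genes with the largest differences that were spread over cells included matrix regulators on the higher side. Timp3, a metalloproteinase inhibitor gene, stood at 216 and 801 CPM, a log2 ratio of 1.89 (interval 1.71 to 2.07), and was seen in 50 of 61 and 28 of 30 cells. In the PHDTiEC group 1 cell gave 21.2% of the Timp3 UMIs. The median over cells was 1.67 and 4.30 Timp3 UMIs per 10000. The Timp3 log2 ratio was 0.96 in type B cells, 0.96 in principal cells and 0.65 in thick ascending limb cells. Timp2, another inhibitor gene of this family, stood at 30.2 and 84.1 (1.48, and 1.19 in type B cells). It was seen in 23 and 14 cells, and 1 PHDTiEC cell gave 19.8% of its UMIs in that group. Pdgfa, a growth factor gene, stood at 34.1 and 107 (1.64, and 0.60 in type B cells). Both Timp genes and, narrowly, Pdgfa were thus past 1.5-fold in type B cells too, and Pdgfa was past it in principal cells (0.75).

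Rdh10, a retinol dehydrogenase gene, stood at 10.1 and 41.1 CPM (log2 ratio 2.03), AI838599 at 11.7 and 51.8 (2.14) and Celf2, an RNA-binding protein gene, at 8.95 and 34.2 (1.94). Dbp, a circadian transcription factor gene, stood at 11.7 and 37.2 (1.66), with a log2 ratio of 1.04 in type B cells and 1.27 in thick ascending limb cells. The others among the 12 highest were 1500015A07Rik, Ddit4l, Kng2, Ly6c1 and Uchl1, with log2 ratios from 1.48 (Uchl1) to 1.76 (1500015A07Rik). Most of them were low, with fewer than 100 UMIs in each group of cells. In type B cells Celf2 (0.98), AI838599 (0.68), Ddit4l (0.76) and Uchl1 (0.76) were past 1.5-fold higher too. Rdh10 was past it in principal cells (0.88) but not in type B cells (0.48). In type B cells 1500015A07Rik (0.41), Kng2 (-0.08) and Ly6c1 (0.07) were not past it.

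On the lower side, Rorb, a nuclear receptor gene, stood at 52.0 and 8.80 CPM (log2 ratio -2.56) but was seen in just 15 of 61 and 4 of 30 cells. Aoc1, which encodes the histamine-degrading diamine oxidase, stood at 59.9 and 14.7 (-2.03), seen in 26 and 10 cells. Rab11fip3, a recycling endosome gene, stood at 56.5 and 19.6 (-1.53), seen in 41 and 13 cells. Gcdh, a mitochondrial dehydrogenase gene, stood at 40.8 and 14.7 (-1.48). The others were Dixdc1, Avpr1a, Cherp, Lrp2, Sdf2l1, Tmem8, Myo5c and Pm20d1, with log2 ratios from -1.84 (Dixdc1) to -1.43 (Pm20d1). Lrp2, the gene of the endocytic receptor megalin of proximal tubule, was seen in 12 and 6 cells. In type B cells Rorb (-0.85), Dixdc1 (-0.68) and Gcdh (-0.63) were past 1.5-fold lower too, and the other genes of this paragraph were not.

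Genes of energy metabolism lay lower as groups, by small amounts. All 13 mitochondrially encoded genes had a log2 ratio below 0, 5 were at least 1.5-fold lower, and the median was -0.56. mt-Co3, a cytochrome c oxidase subunit gene, stood at 20179 and 12848 CPM (log2 ratio -0.65), and mt-Atp6, an ATP synthase subunit gene, at 17085 and 10534 (-0.70). The median of these 13 genes was -0.60 in type B cells, -0.88 in principal cells, -0.56 in thick ascending limb cells and -0.34 in macrophages, so all 5 classes had it below 0. Mitochondrial UMIs also measure how intact cells are, and their part in the difference was not tested.

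All 45 nuclear genes of the respiratory chain had a log2 ratio below 0, but only 2 were at least 1.5-fold lower, a share no larger than the 5.42% of all genes, and the median was -0.32. One of them was Ndufs1, a core subunit gene of complex I (117 and 52.8 CPM, log2 ratio -1.15). In type B cells all 45 were below 0 as well, with a median of -0.26. Of 28 genes of the citrate cycle and pyruvate entry, 25 were below 0 and 3 were called, among them Mdh1, the cytosolic malate dehydrogenase gene (854 and 562, -0.60). Of 17 glycolysis genes, 1 was higher (Hk2, a hexokinase gene, 55.4 and 129, seen in 19 and 10 cells) and 1 lower (Slc2a4, a glucose transporter gene, 38.0 and 19.6).

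Some genes of the HIF response, which the prolyl hydroxylases restrain, passed the limit in type A cells. Of 18 measured HIF target genes, 3 were higher (all genes, 8.69%) and 0 lower (all genes, 5.42%), with a median of 0.19. They were Cited2, a gene of a HIF feedback inhibitor (117 and 214 CPM, log2 ratio 0.87), Adm, the adrenomedullin gene (17.3 and 28.4, 0.71), and Hmox1, the heme oxygenase gene (20.7 and 32.3, 0.64). The Cited2 log2 ratio was 0.25 with the Ptprc barcodes included. In type B cells 1 of 23 HIF target genes was higher and 1 lower (median -0.06). In principal cells 0 of 17 were higher and 4 lower (-0.24), and in thick ascending limb cells 3 of 26 were higher and 0 lower (0.13). Vegfa, an angiogenic growth factor gene, stood at 82.2 and 94.8, and Slc2a1, a glucose transporter gene, at 112 and 75.3 (-0.57). Hif1a stood at 172 and 220 (0.35) and Epas1 (HIF-2alpha) at 30.8 and 39.1 (0.35).

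Several tubular injury genes were higher in the PHDTiEC library. Of 14 measured, 5 were at least 1.5-fold higher and 2 lower, with a median of 0.25. Wfdc2, a secreted protease inhibitor-like gene, stood at 1403 and 2468 CPM (log2 ratio 0.81, interval 0.73 to 0.89), and Krt8, a simple epithelial keratin gene, at 691 and 1186 (0.78, interval 0.66 to 0.89). Sox4, a transcription factor gene, stood at 615 and 947 (0.62), and Krt19, another keratin gene, at 114 and 175 (0.62). Timp2 was the fifth. In type B cells the log2 ratios were 0.38 for Wfdc2, 0.36 for Krt8, 0.47 for Sox4 and 0.49 for Krt19, below 1.5-fold each. In principal cells they were 0.21, 0.53, 0.62 and 0.27, and 6 of 16 measured genes of the list were higher and 0 lower there, with a median of 0.53, so higher injury genes were not particular to type A cells. The lower were Spp1, the osteopontin gene (11163 and 7418, -0.59, and -0.91 in type B cells), and C3, a complement gene, of which 1 cell gave 58.8% of the UMIs in the Cre- type A cells. Lcn2, the gene of the iron-trapping protein NGAL, stood at 1252 and 1781 (0.51), and 1 cell gave 43.5% of it in the PHDTiEC library.

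Immediate early and dissociation-linked genes were slightly higher as a list, with 3 of 25 past 1.5-fold, 0 lower and a median of 0.18. Atf3, a stress-induced transcription factor gene, stood at 1235 and 1885 CPM (log2 ratio 0.61) and Klf4, another, at 261 and 512 (0.97). Cdkn1a, the gene of the cell cycle inhibitor p21, stood at 147 and 249 (0.77). Of 11 innate immune genes of intercalated cells, 2 were higher and 2 lower, with a median of 0.02. Defb1 stood at 3433 and 2409 (-0.51).

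**Figure D5:**
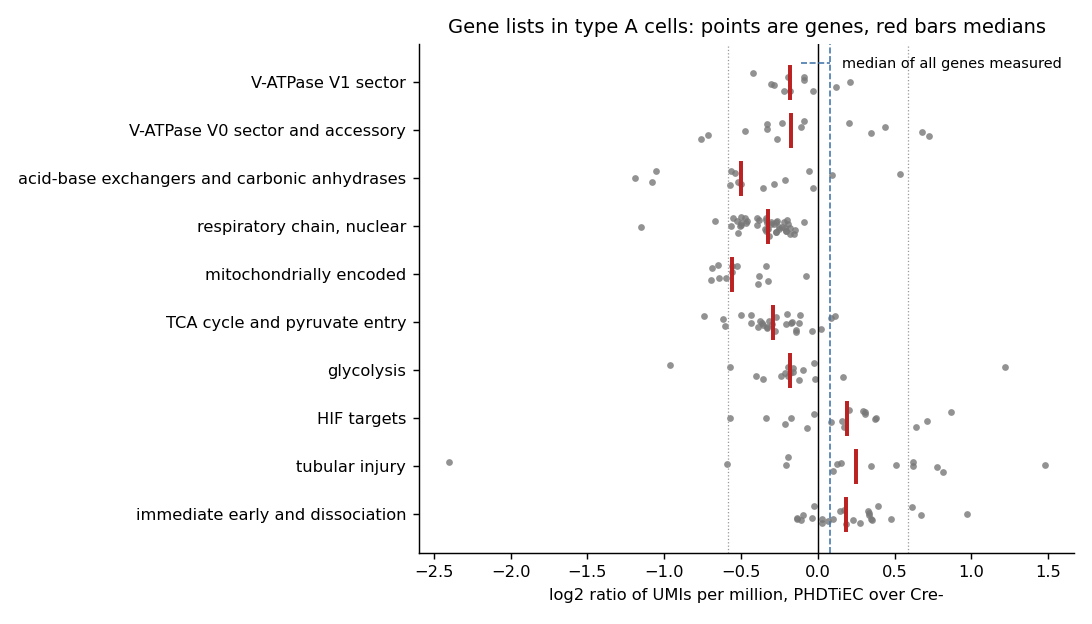
Log2 ratio of CPM (PHDTiEC over Cre-) in type A cells for the measured genes of 10 lists; each point is 1 gene, red bars are list medians, dotted lines mark 1.5-fold either way and the dashed line the median of all 7031 genes (0.08). The acid-base list (median -0.50) and the mitochondrially encoded genes (-0.56) lie furthest to the left, and the tubular injury list (0.25) furthest to the right.

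The marker lists of other cell types differed between the libraries to unequal degrees. All 5 measured proximal tubule genes were lower, with a median of -2.00 that ran from -3.89 to 0.196 over 10 alternatives, the last where Ptprc was not used. Also lower were 3 of 5 distal convoluted tubule genes, with a median of -1.25. Of 5 measured thick ascending limb genes 2 were higher and 1 lower, with a median of 0.55, while 1 of 14 principal cell genes was higher and 1 lower. Summed over each list, proximal tubule genes stood at 383 and 90.0 CPM, distal convoluted tubule genes at 1551 and 633, thick ascending limb genes at 611 and 507, principal cell genes at 4299 and 5492 and macrophage genes at 437 and 458. Fibroblast and mural genes stood at 13.4 and 159, with 1 gene measured (Acta2, 98.8% of its PHDTiEC UMIs from 1 cell), and endothelial genes at 12.3 and 54.8, with 0 measured. Few cells carried the proximal and distal convoluted tubule genes. A single Cre- cell gave 76.6% of the Slc12a3 UMIs of the Cre- type A cells, and Slc34a1 was seen in 12 and 8 cells. Of the 4 measured macrophage markers, 0 passed 1.5-fold. The part of these transcripts in the other differences was not tested.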

How the data were processed

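Kidneys were profiled by 3' single-cell RNA sequencing, with 1 library for each genotype. The authors deposited unfiltered matrices of UMI counts made with Cell Ranger (version 4 per the file headers) against mm10. Barcode limits, cell criteria and comparison classes were applied to these counts. Type B cells met the same criteria for Atp6v1g3, Foxi1 and Ptprc as type A cells. They held at least 2 Slc26a4 UMIs and more of these than of Slc4a1. Principal cells held at least 5 each of Aqp2 and Fxyd4 and none of Foxi1, Slc4a1, Slc26a4 or Ptprc. Thick ascending limb cells held at least 5 each of Slc12a1 and Umod and no Slc4a1 or Ptprc, and macrophages at least 1 of Ptprc and 3 of C1qa and no Atp6v1g3. Doublets were not called and no doublet caller was run.

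Within a library, the UMIs of all cells of 1 class were added up per gene and scaled to 1000000 UMIs (CPM). Between libraries, genes with at least 50 UMIs (list genes too) and a ratio of at least 1.5-fold were counted as higher or lower. Between classes the ratio had to reach 2-fold the same way in both libraries. Shares have exact Clopper-Pearson intervals, levels exact Poisson intervals and ratios exact binomial intervals. The 12 highest and 12 lowest genes named were those seen in at least 10 cells with at most 25% of the UMIs from 1 cell, outside mitochondrial, ribosomal protein, haemoglobin, immunoglobulin and sex-linked marker genes. List genes were named by role, level and size of ratio. The members and gene lists were chosen with earlier results of these data known. The calculation was tested on simulated data. Python 3.11.15, numpy 2.4.6, scipy 1.17.1, pandas 2.3.3 and edgeR 4.0.16 (TMM factors only) were used. Alternatives were other barcode limits, thresholds, scalings and minimum counts. Some genes are not reported here. No p-value was computed because each group was 1 mouse.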

Additional observations from a re-analysis of the deposited data

Results flagged for a closer look

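Genes of the lists and of the 12 highest and 12 lowest that were past 1.5-fold in opposite directions in type A and principal cells were sought. Given here are those with at least 50 UMIs in each class, intervals that excluded 0 and at most 25% of the UMIs from 1 cell. Lrp2 (-1.48 in type A and 1.86 in principal cells) and Sdf2l1 (-1.46 and 0.70) also went opposite ways but did not meet all these limits. The difference between the classes was not tested for any of them, since each library was 1 mouse. Ncoa7 had a log2 ratio (PHDTiEC over Cre-) of -0.76 in type A cells (320 and 189 CPM) and 0.80 in principal cells (31.4 and 54.5). Gstm1, a glutathione transferase gene, had -0.64 in type A cells (80.6 and 51.8) and 0.64 in principal cells (58.1 and 90.6). Aoc1 had -2.03 in type A cells (59.9 and 14.7) and 1.28 in principal cells (27.9 and 67.6). The proximal tubule marker list also ran opposite ways in these classes. All 5 measured genes were lower in type A cells (median -2.00) and all 5 higher in principal cells (3.54). Slc34a1, a proximal tubule gene, stood at 94.0 and 23.5 CPM in type A cells and 9.30 and 108 in principal cells. The part of such transcripts in the flagged genes was not tested.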

How the results depend on the processing

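Of 608 values recomputed under 23 alternative settings, 444 stayed within the counting error of the reported value or, for counts of genes, within 1.5 times of it and, for the median of all genes, within 0.1 of it. A further 162 lay outside and 2 reversed, counting as reversed a list median only where both values lay further from 0 than its counting error. By sign alone, 27 of 331 list medians changed, in 11 of 28 lists, many of them with medians near 0. Among these the proximal tubule list went from -2.00 to 0.20 and the HIF targets from 0.19 to -0.030 where Ptprc was not used, the NF-kB and TNF list from -0.09 to 0.18 with at least 5 Slc4a1 UMIs, and the macrophage list from 0.17 to -0.19 with the free RNA profile subtracted. For 17 named genes, 146 of 205 values stayed within counting error and 59 did not, and the sign changed for Aqp2 alone, which was not past 1.5-fold. Its log2 ratio of 0.53 was -0.70 where Ptprc was not used, -0.29 without the PHDTiEC cell with most Aqp2 and -0.029 with at most 50000 UMIs, and it also changed where cells were chosen by Aqp2 itself. The ratio of type A shares ran from 0.396 to 0.646 over 9 alternatives. No paired analysis was possible because each group was 1 library. Leaving out a replicate was not possible for the same reason. The use of barcodes with Ptprc, and leaving out the cells with most UMIs of a gene, were chosen after seeing the data.

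The share of Cre- cells with Aqp2 was 47.0% where Ptprc was not used, and that of PHDTiEC cells was 40% unthinned and 38.5% where the criteria were read on thinned barcodes. The median log2 ratio of the nuclear respiratory chain genes was -0.29 with a mitochondrial limit of 20%, -0.37 with at most 50000 UMIs, -0.44 with at least 5 Slc4a1 UMIs, -0.20 where Ptprc was not used, -0.37 in cells with fewer than 5 Aqp2 UMIs, -0.45 in cells without Slc26a4, -0.38 without mitochondrial genes in the totals and -0.42 under TMM scaling. That of the mitochondrially encoded genes was -0.45 with the limit of 20%, -0.66 with at least 5 Slc4a1 UMIs, -0.42 where Ptprc was not used, -0.86 with fewer than 5 Aqp2 UMIs, -0.65 under TMM and -0.71 as a mean over cells. The tubular injury list gave 0.48 with at most 50000 UMIs, 0.69 with at least 5 Slc4a1 UMIs, 0.50 with fewer than 5 Aqp2 UMIs and 0.60 without Slc26a4. The V1 list gave -0.31, -0.36 and -0.29 under the last 3 of these and -0.27 under TMM. The V0 list gave -0.33 with at least 5 Slc4a1 UMIs and -0.51 with fewer than 5 Aqp2 UMIs, where the acid-base list gave -0.85.

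The principal cell list reversed from 0.22 to -0.35 where Ptprc was not used, and the thick ascending limb list reversed to -0.58 with a minimum of 10 UMIs, which adds low genes. Between the libraries, 572 genes were lower under TMM, 948 were higher as a mean over cells, 2530 were higher and 1617 lower with no minimum, and 118 were higher and 97 lower at 2-fold. Against type B cells, 77 genes were higher as a mean over cells, and 4 were higher and 20 lower at 4-fold. Against principal cells, 81 were higher and 6 lower at 4-fold, and 166 were lower as a mean over cells. Where no construction of the setting shows it, the cause was not tested. With 30 cells in the PHDTiEC library, genes under 50 UMIs were too thin to compare.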

Other observations

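Interferon-induced genes were low in type A cells and gave no common direction. Of 12 measured, 3 were at least 1.5-fold higher and 1 lower in the PHDTiEC library. Irf1, an interferon regulatory factor gene, stood at 136 and 215 CPM, and Bst2, which encodes the antiviral membrane protein tetherin, at 82.8 and 39.1. Among antioxidant genes, Gpx3, a plasma glutathione peroxidase gene made in proximal tubule, stood at 1154 and 365, and 1 cell gave 30.9% of its UMIs in the Cre- type A cells. Tnf, a cytokine gene, stood at 33.0 and 7.82 and was seen in 14 and 5 cells.

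The 110 barcodes left out for Ptprc (57 and 53) held Slc4a1 at 169 and 114 CPM and Aqp6 at 665 and 465, below the 266 and 180 and the 975 and 655 of the type A cells. Cd74, an antigen presentation gene of macrophages, stood at 838 and 509 in them, against 138 and 130 in the type A cells and 14089 and 11728 in macrophage barcodes. With these barcodes included, the log2 ratio (PHDTiEC over Cre-) was -0.87 for Car2, -0.63 for Kit, -0.93 for Avpr1a, -0.69 for Clcn5, -0.73 for Rhbg, -0.61 for Aqp6, 0.96 for Timp3 and 0.61 for Hes1, each past 1.5-fold. Called genes that fell below 1.5-fold were Rdh10 (0.38), Cited2 (0.25), Sox4 (0.30), Spp1 (-0.26), Mdh1 (-0.43) and Ndufs1 (-0.52). The other called genes recomputed this way stayed past it, and not every called gene was recomputed.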
